A study of Rattus norvegicus with 6 samples.

Results

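The nuclear-encoded subunits of the mitochondrial respiratory chain and of ATP synthase were compared between kidneys of 2 rat strains. The members were the probe sets whose single gene symbol in the platform annotation starts with Nduf (complex I), Uqcr (complex III), Cox4 to Cox8 (complex IV) or Atp5 (complex V, ATP synthase), and succinate dehydrogenase (complex II) was not among them. This rule gave 91 of 31099 probe sets, which stand for 82 of the 14217 genes with a probe set of their own. It used no measured value, but it was chosen with earlier results of these data known. The rats were male Dahl salt-sensitive (Dahl S) animals, a strain that becomes hypertensive on salt, and male Lewis animals, 3 of each. All 6 rats ate food with 8% NaCl from the age of 5 weeks for 8 weeks, so the strains share the salt load, and animals on low salt were not analysed here. RNA of the kidney was extracted with TRIzol and hybridized to 1 array per rat, and signal per probe set was read as a linear intensity.

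The respiratory chain passes electrons from NADH through complex I, ubiquinone, complex III and cytochrome c to oxygen at complex IV, and complexes I, III and IV pump protons across the inner mitochondrial membrane. ATP synthase lets the protons flow back and makes ATP. The kidney is rich in mitochondria, above all in the proximal tubule and the thick ascending limb, where ATP drives the sodium pump. Most subunits are encoded in the nucleus, while a few core subunits, which the rule does not cover, are encoded in mitochondrial DNA.

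The arrays had unequal overall brightness, with a 2% trimmed mean of the deposited signal between 119 and 250, the lowest on Lewis array 1. Values were therefore brought to a common distribution (quantile normalization of log2(signal + 16)), so every difference is relative to the typical probe set, and a pseudocount of 16 shrinks the differences of dim genes. Over the tested probe sets, arrays of the same strain correlated at 0.980 to 0.993 and arrays of different strains at 0.958 to 0.970. A probe set was tested when 3 or more of the 6 arrays put it above the overall median signal. This left 80 member probe sets and 75 member genes, each represented by its brightest probe set, among 9535 genes in all. The p-values set each strain difference against the variation between rats within a strain, with a variance moderated over all tested probe sets. Nothing says whether rats shared a litter or a cage, so they speak for these 6 rats only.

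Transcripts of the chain and of ATP synthase differed little between the strains. Of the 75 tested genes, 2 rose in Dahl S, the complex I assembly factor gene Ndufaf1 and the supercomplex factor gene Cox7a2l, 1 fell, Ndufa4, and 72 did not pass (limma, adjusted p under 0.05 over all probe sets). That is 4% of the members, where 16.6% of all genes tested passed, 9.04% higher and 7.59% lower. Scaling to a common median or cyclic loess gave 2 higher and 2 lower members, and the deposited intensities without normalization gave 1 higher and 0 lower. Without Lewis array 1 the members past the threshold numbered 8 (10.7%, against 17.7% of all genes), 2 higher and 6 lower. In bulk kidney, fewer cells of a type and less RNA per cell cannot be told apart.

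A missed threshold does not show equality, so the intervals were read as well. The 95% interval of the difference lay within 0.5 log2 on either side of 0 for 73 of the 75 genes (97.3%), against 72.6% of all genes tested and 85.6% of the brightest 25% of genes. Within 0.3 log2 lay the intervals of 57 members (76.0%), against 28.4% of all genes and 51.4% of the brightest 25%. The narrowest interval was that of Atp5f1b, from -0.14 to 0.05, and the widest among genes that did not pass was that of Ndufb8, from -0.45 to 0.32; both were chosen after their values were seen. Most members were bright, with 64 of 75 in the brightest 25% of genes, and the standard error (SE) of a difference was 0.07 at the median, against 0.10 over all genes. The fit lets the variance follow brightness (a variance trend), and the SEs and intervals of the members depend on this. With no variance trend Ndufa4 kept its difference of -0.17, but its limma adjusted p went from 0.033 to 0.19. The intervals are those of quantile normalization and leave out the choice of scaling. With a common median the difference of Atp5f1b was -0.235, outside its interval above, where all genes had a median of 0.07.

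**Figure D1:**
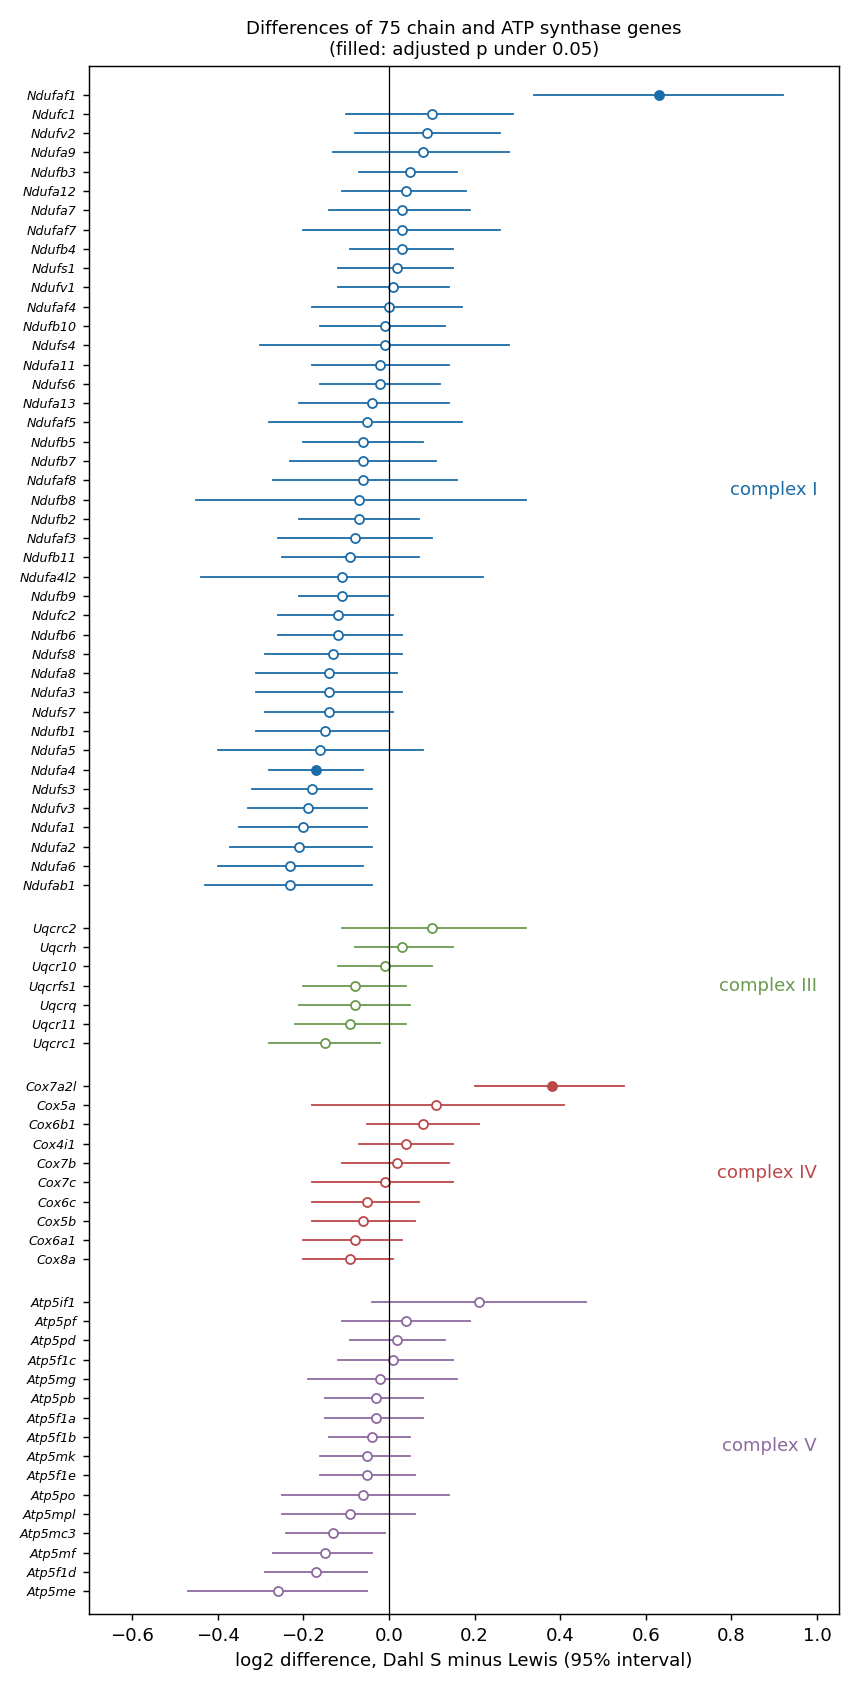
Difference of each of the 75 tested genes between strains, as log2 Dahl S minus Lewis on the x axis, with its 95% interval as a line and genes grouped by complex. Filled points mark the 3 genes past the threshold, Ndufaf1, Cox7a2l and Ndufa4, and the 72 open points run from -0.26 to 0.21.

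The small differences leaned to lower values in Dahl S. The median over the 75 genes was -0.05, against 0.00 over all genes tested, and 53 genes (70.7%) were below 0, against 49.0% of all genes. At an unadjusted p under 0.05, 13 members were lower and 2 higher (20.0% in all), where 30.1% of all genes passed, 14.3% lower and 15.8% higher. Of the 2384 genes in the brightest 25%, where most members lie, 36.2% passed, 438 lower and 424 higher. The count of 13 depends on the fit. It was 11 with a common median and 13 with cyclic loess, but 1 with no variance trend and 0 without normalization. With 1 array left out it ran from 6, without Dahl S array 3, to 16, without Lewis array 1. The strain ranges did not overlap in 17 members (22.7%), 15 of them lower in Dahl S, against 35.1% of all genes, 16.7% lower and 18.4% higher. In the brightest 25% of genes it was 40.5%, with 482 genes lower and 483 higher. By both counts the members' share of lower genes was close to that of these backgrounds, while their share of higher genes was small. The sign of the median depends on the scaling. It was -0.09 with a common median or cyclic loess and 0.25 in the deposited intensities, where all genes together had a median of 0.41. Minus the median of all genes it was -0.06 with quantile normalization, -0.09 with cyclic loess, and -0.17 both with a common median and without normalization.

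**Figure D2:**
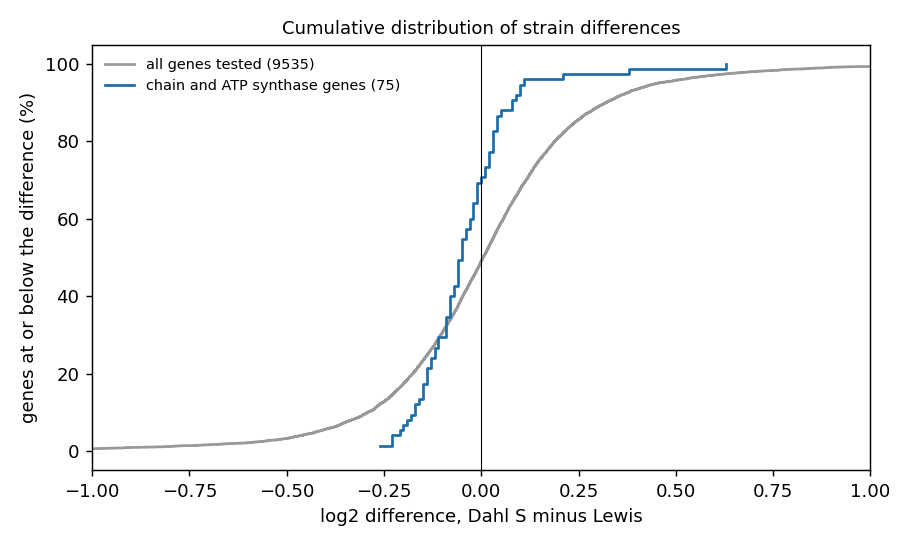
Cumulative percentage of genes (y axis) against the log2 difference, Dahl S minus Lewis (x axis, shown from -1 to 1), for the 75 chain and ATP synthase genes and for all 9535 genes tested. The member curve rises steeply near 0, with 96.0% of members and 72.9% of all genes less than 0.25 from 0.

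**Figure D3:**
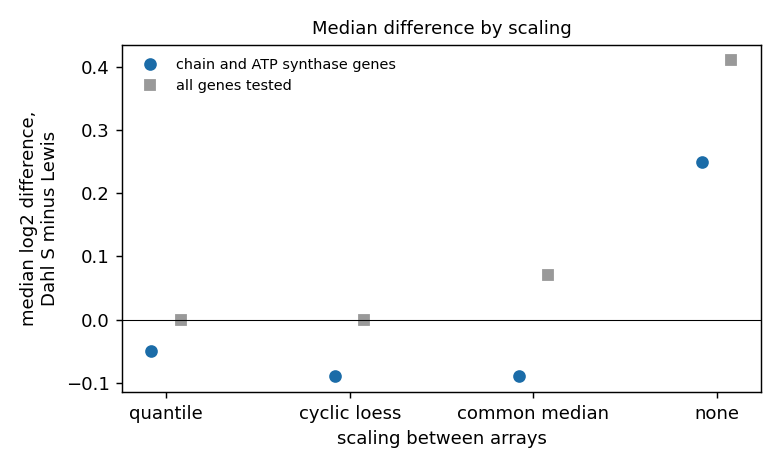
Median log2 difference, Dahl S minus Lewis (y axis), of the member genes (circles) and of all genes tested (squares) under each scaling between arrays (x axis). The member median lies below that of all genes in each, at -0.05 against 0.00 after quantile normalization and at 0.25 against 0.41 in the deposited intensities.

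By array, the members' medians differed by a few hundredths of a log2 unit, while single genes went both ways on every array. Each gene's value was set against its own mean over the 6 arrays, and the median of these deviations over the 75 genes was -0.03 on each Dahl S array and 0.00, 0.04 and 0.03 for Lewis rats 1 to 3. The Dahl S medians lay below all the Lewis medians in the whole group, and in complexes I and V. In complexes III and IV the strains overlapped. The genes below their own mean numbered 44, 44 and 50 of 75 on the Dahl S arrays and 37, 23 and 27 on the Lewis arrays, and on Lewis array 1 single genes ran from -0.56 to 0.36. Within Lewis the genes varied more from rat to rat (median SD 0.09 log2) than within Dahl S (0.05), as they did over all genes tested (0.13 and 0.08).

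**Figure D4:**
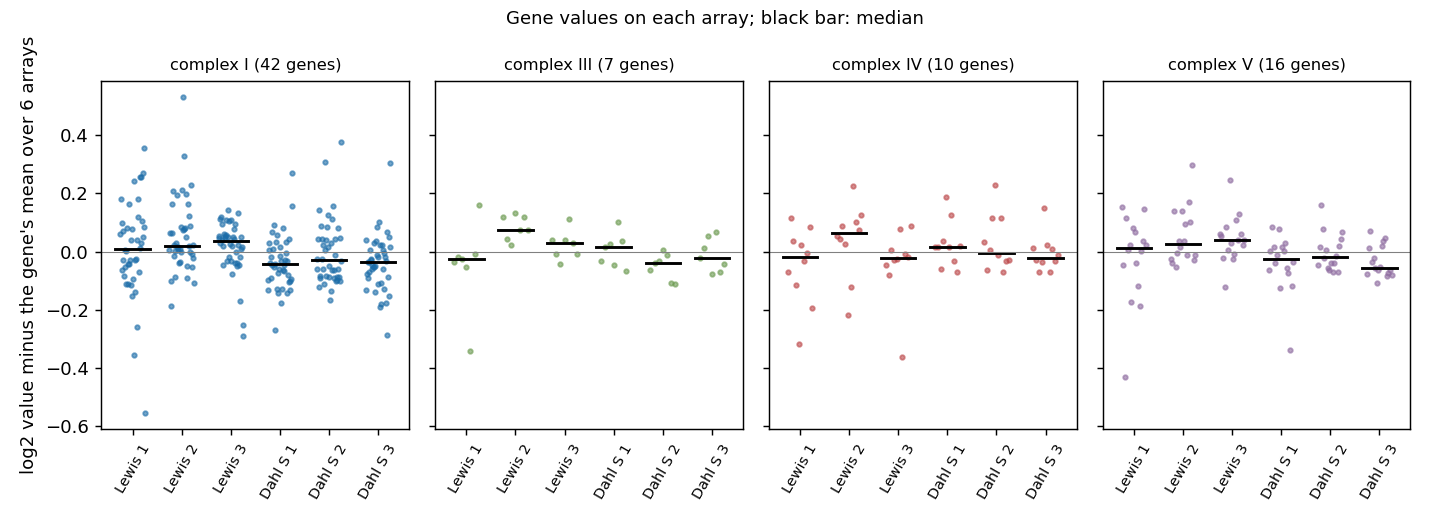
Each point is a gene's log2 value on an array minus its mean over the 6 arrays (y axis), by array (x axis) and complex, with the median as a black bar. In complex I the medians were -0.04, -0.03 and -0.04 for Dahl S rats 1 to 3 and 0.01, 0.02 and 0.04 for Lewis rats 1 to 3.

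As a sequence feature that the rule did not use, promoters of the members (RefSeq, GRCr8, from 250 bases before to 50 after the first listed start, found for 74 of 82 genes) were searched on both strands for 4 motifs, none of which contains another. The YY1 motif AAGATGGCG was in 11 of 74 member promoters (14.9%) and in 1.93% of all 27457 promoters. The GABPA motif CCGGAAGT was in 8 (10.8%, against 4.01%), the NRF1 motif, which equals its own reverse complement, in 5 (6.76%, against 0.932%) and the ESRRA motif TCAAGGTCA in 1 (1.35%, against 0.412%). Of the YY1 matches, 8 were in the 40 complex I promoters. The share of G and C was 55.8% at the median in member promoters and 52.3% in all promoters, and its part in the motif counts was not tested. The comparison promoters were not limited to genes on the array. A match describes letters in the window and is no measured binding. The first listed start is not always the outer end of the gene. The Ndufaf1 window lies wholly within that gene, which spans 127089893 to 127104357, so the bases before the gene were not searched. The Atp5me window crosses the outer start of its gene at 1464788, with fewer than 250 bases before it. Atp5pd, Cox4i2, Cox6a1, Cox6c, Cox6c-ps1, Ndufa8, Ndufb9 and Uqcr11 were not matched. The promoters of Atp5me (chr14:1464610-1464909, plus strand) and Uqcrc1 (chr8:118467973-118468272, plus strand) are shown as examples of a match, and those of Ndufaf1 (chr3:127103971-127104270, minus strand) and Cox7a2l (chr6:16936324-16936623, plus strand) because these genes rose in Dahl S. Sequences run 5′ to 3′, and capitals mark the NRF1 motif in Atp5me and the YY1 motif in Uqcrc1, while these letters do not occur in the windows of Ndufaf1 and Cox7a2l.
Atp5me: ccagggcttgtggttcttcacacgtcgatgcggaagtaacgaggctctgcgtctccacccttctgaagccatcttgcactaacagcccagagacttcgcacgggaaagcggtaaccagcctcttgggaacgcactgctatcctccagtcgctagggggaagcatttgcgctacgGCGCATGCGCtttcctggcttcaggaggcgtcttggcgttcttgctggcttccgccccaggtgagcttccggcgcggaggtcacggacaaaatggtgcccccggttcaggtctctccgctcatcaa
Uqcrc1: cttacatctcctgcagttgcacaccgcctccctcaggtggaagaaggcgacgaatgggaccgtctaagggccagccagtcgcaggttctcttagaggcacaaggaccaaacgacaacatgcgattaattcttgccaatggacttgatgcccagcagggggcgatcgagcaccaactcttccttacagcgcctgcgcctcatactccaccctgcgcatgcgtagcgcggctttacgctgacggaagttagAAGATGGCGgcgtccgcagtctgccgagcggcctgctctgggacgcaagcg
Ndufaf1: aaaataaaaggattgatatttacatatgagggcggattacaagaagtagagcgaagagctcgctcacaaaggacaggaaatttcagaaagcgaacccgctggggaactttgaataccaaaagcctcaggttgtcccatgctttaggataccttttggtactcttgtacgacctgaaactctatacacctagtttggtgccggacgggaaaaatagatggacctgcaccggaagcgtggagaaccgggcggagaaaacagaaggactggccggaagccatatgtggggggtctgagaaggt
Cox7a2l: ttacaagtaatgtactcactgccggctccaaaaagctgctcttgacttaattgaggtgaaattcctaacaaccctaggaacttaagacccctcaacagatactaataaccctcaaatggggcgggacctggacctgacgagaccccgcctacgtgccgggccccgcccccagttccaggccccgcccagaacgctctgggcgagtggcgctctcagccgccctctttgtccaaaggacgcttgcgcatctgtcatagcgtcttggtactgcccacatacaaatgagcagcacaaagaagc

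Complex I, the NADH dehydrogenase, is the largest complex and gave 42 tested genes out of 42. Of these, 1 rose, 1 fell and 40 did not pass, with a median of -0.06 and 31 genes below 0. The core subunits carry the flavin and the iron-sulfur clusters of the electron path. None of the 6 tested passed, and their differences ran from -0.18 to 0.09. Ndufs1, which holds several iron-sulfur clusters, had normalized signals of 2651, 2491 and 2764 in Lewis rats 1 to 3 and of 2663, 2731 and 2597 in Dahl S rats 1 to 3. The strains overlapped, and the difference was 0.02 (SE 0.06, interval -0.12 to 0.15). Ndufv1, the flavin-binding NADH-oxidizing subunit, gave 0.01 (SE 0.06) and its partner Ndufv2 0.09 (SE 0.08). Ndufs3, Ndufs7 and Ndufs8 belong to the arm that leads electrons towards ubiquinone, and none of them passed. Ndufs3 gave -0.18 (SE 0.06, limma adjusted p = 0.081), with signals of 2276, 2458 and 2475 in Lewis and 2043, 2101 and 2226 in Dahl S, ranges that did not overlap. Ndufs7 gave -0.14 (SE 0.07, limma adjusted p = 0.21) and Ndufs8 -0.13 (SE 0.07, limma adjusted p = 0.25). Without Lewis array 1, Ndufs3 (-0.21, adjusted p = 0.024 by limma) and Ndufs7 (-0.19, adjusted p = 0.043) passed.

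Supernumerary subunits surround that core and are needed for its assembly and stability. None of 28 passed, 22 were below 0, and they ran from -0.23 to 0.10. The lowest values, named after they were seen, were those of Ndufab1, the mitochondrial acyl carrier protein, at -0.23 (SE 0.09, limma adjusted p = 0.10), Ndufa6 at -0.23 (SE 0.08, 0.071) and Ndufa2 at -0.21 (SE 0.08, 0.092). Ndufa6 passed without Dahl S array 2 (-0.30, limma adjusted p = 0.043), and Ndufa8, at -0.14 (SE 0.08) with all arrays, passed without Lewis array 1. Ndufab1 had signals of 3057, 2348 and 2411 in Lewis and 2234, 2226 and 2146 in Dahl S. All 3 Dahl S arrays lay below all Lewis arrays, and the highest Lewis value was on array 1. Ndufv3, a small subunit beside the flavoprotein that was also chosen after its values were seen, gave -0.19 (SE 0.06, limma adjusted p = 0.063) with its brighter probe set and 0.09 (SE 0.12, 0.64) with the dimmer one. Ndufa7, chosen in the same way, gave 0.03 (SE 0.08, limma adjusted p = 0.84) with its brighter probe set. Its dimmer one gave -0.36 (SE 0.11, 0.052), with no overlap between strains.

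Ndufaf1 encodes an assembly factor of complex I and is no subunit of the finished enzyme. Its normalized signals were 62.6, 91.1 and 78.5 in Lewis rats 1 to 3 and 123, 134 and 127 in Dahl S rats 1 to 3. Every Dahl S rat lay above every Lewis rat. The difference was 0.63 (SE 0.13, 1.55-fold, limma adjusted p = 0.0065), and it was 0.74 with no pseudocount and 0.45 with one of 64, since the gene is dim. It was 0.53 without Lewis array 1, and its call held in every alternative that tested it; the stricter filter removed it. The gene lies on chromosome 3 at 127089893 to 127104357 in the GRCr8 assembly. Of the other 5 assembly factors, Ndufaf3, Ndufaf4, Ndufaf5, Ndufaf7 and Ndufaf8, none passed, and their differences ran from -0.08 to 0.03.

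NDUFAF1 works in a membrane-bound assembly complex with ACAD9, ECSIT and TMEM126B, as known from human cells. Among the genes of these partners, Acad9 rose by 0.57 (SE 0.09, limma adjusted p = 0.0011), while Ecsit gave -0.20 (SE 0.09, 0.17) and Tmem126b -0.04 (SE 0.08, 0.81).

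Ndufa4 was first assigned to complex I, whose prefix it bears, and was later placed in complex IV. Its normalized signals were 5855, 5817 and 6054 in Lewis rats 1 to 3 and 5412, 5114 and 5222 in Dahl S rats 1 to 3. All Dahl S values lay below all Lewis values. It fell by 0.17 on the log2 scale (SE 0.05, 1.13-fold, limma adjusted p = 0.033). This call was the least stable of the 3. It was lost without Lewis array 3 (-0.15, limma adjusted p = 0.078), without Dahl S array 1 (-0.20, 0.051), array 2 (-0.16, 0.13) or array 3 (-0.17, 0.14), with no filter (0.12) and with no variance trend (0.19). In the deposited intensities it was 0.06, below the 0.41 of all genes. The related gene Ndufa4l2, named after its values were seen, was dim, with signals between 60.1 and 92.9 on all arrays, and gave -0.11 (SE 0.15).

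**Figure D5:**
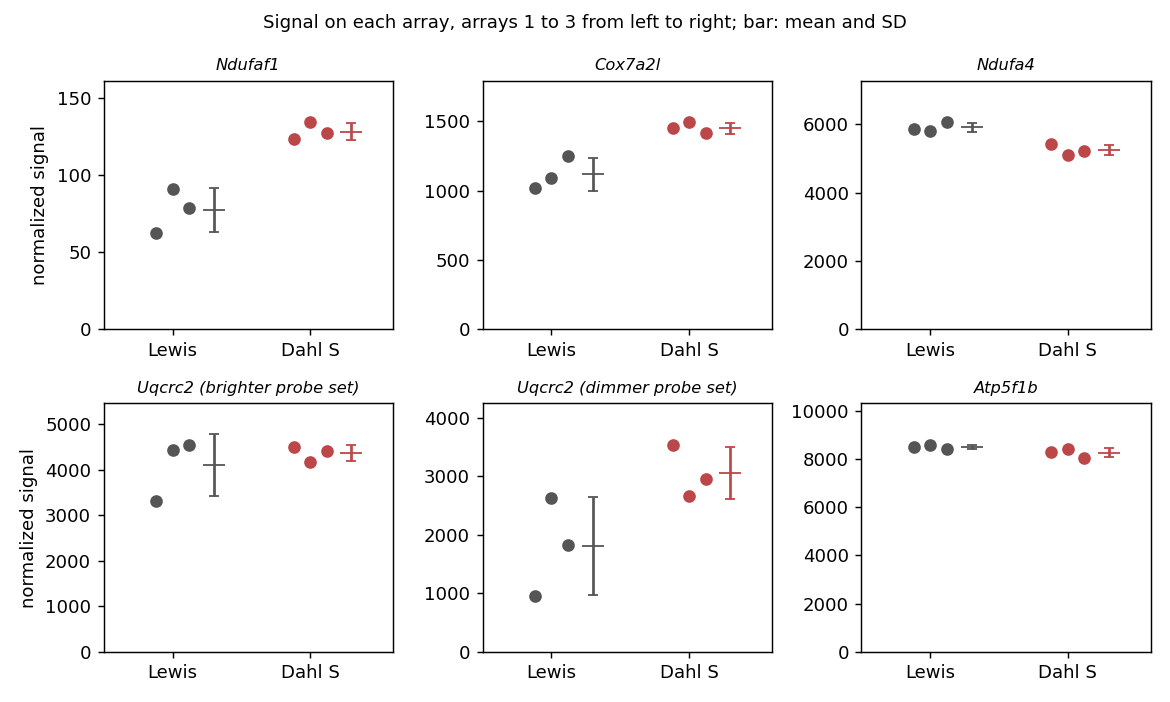
Normalized signal (y axis, from 0) on Lewis arrays 1 to 3 (grey) and Dahl S arrays 1 to 3 (red), with mean and SD, for the 3 genes past the threshold, both probe sets of Uqcrc2, and Atp5f1b. Ndufaf1 and Cox7a2l lie higher on all Dahl S arrays, Ndufa4 lies lower, and the dimmer Uqcrc2 probe set spreads from 959 to 2629 within Lewis.

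Complex III takes electrons from ubiquinol to cytochrome c, and 7 genes were tested, none of which passed. The differences ran from -0.15 to 0.10, with a median of -0.08. Uqcrfs1, the Rieske iron-sulfur protein, gave -0.08 (SE 0.05), with signals of 4458, 4965 and 4691 in Lewis and 4469, 4368 and 4497 in Dahl S, which overlapped. Uqcrc1, the first core protein, gave -0.15 (SE 0.06, limma adjusted p = 0.12) and did not overlap. The smaller subunit genes Uqcr10, Uqcr11, Uqcrh and Uqcrq lay between -0.09 and 0.03.

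Uqcrc2, the other core protein, was measured by 2 tested probe sets that differed by 0.75 log2. The brighter one had signals of 3318, 4437 and 4551 in Lewis and 4512, 4173 and 4413 in Dahl S, with overlapping strains and a difference of 0.10 (SE 0.10, limma adjusted p = 0.53). The dimmer one had 959, 2629 and 1827 in Lewis and 3536, 2668 and 2946 in Dahl S. There the lowest Dahl S value lay just above the highest Lewis value, and the difference was 0.86 (SE 0.26, limma adjusted p = 0.041). It was 0.45 without Lewis array 1 (adjusted p = 0.033 by limma). The call was lost without Lewis array 3 (0.92, 0.067), without Dahl S array 1 (0.75, 0.15), 2 (0.96, 0.072) or 3 (0.88, 0.086), with a common median (0.060), cyclic loess (0.055), no filter (0.14) and no variance trend (0.095). Counting every tested probe set, 4 of 80 passed, against 16.2% of all probe sets tested.

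Complex IV, cytochrome c oxidase, reduces oxygen to water. Its catalytic core is encoded in mitochondrial DNA, and the nuclear subunits around it exist in part as tissue isoforms. Of 17 genes 10 were tested, 1 rose and 9 did not pass. The ubiquitous subunits were close in both strains after quantile normalization, from -0.09 to 0.11 over 9 genes. With a common median they ran from -0.268 for Cox8a to 0.192 for Cox5a, with Cox4i1 at -0.128, and none passed. Cox4i1, the main regulatory subunit, had signals of 6334, 6911 and 6434 in Lewis and 6728, 6804 and 6711 in Dahl S, which overlapped, and a difference of 0.04 (SE 0.05, interval -0.07 to 0.15). Cox5b gave -0.06 (SE 0.05), Cox6a1 -0.08 (SE 0.05), Cox6b1 0.08 (SE 0.06), Cox7b 0.02 (SE 0.06) and Cox8a -0.09 (SE 0.05). Cox5a was dimmer and less precise, at 0.11 (SE 0.14).

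Cox7a2l encodes a relative of subunit VIIa, also called SCAF1, that joins complexes III and IV in supercomplexes in mouse. Its normalized signals were 1016, 1091 and 1248 in Lewis rats 1 to 3 and 1449, 1492 and 1412 in Dahl S rats 1 to 3, with no overlap. The difference was 0.38 (SE 0.08, 1.30-fold, limma adjusted p = 0.0075). It was 0.31 to 0.45 with any 1 array left out and passed each time. In the deposited intensities it was 0.77 and did not pass (adjusted p = 0.19 by limma). The gene lies on chromosome 6 at 16936574 to 16950797.

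The isoforms that complex IV uses in heart and skeletal muscle (Cox6a2, Cox7a1, Cox8b), lung (Cox4i2) and testis (Cox6b2, Cox7b2) were not tested, because their signals fell under the filter, as did the pseudogene Cox6c-ps1. Over these 7 genes the normalized signal ran from 1.53 to 61.6. Cox8b was at 9.96, 18.6 and 9.68 in Lewis and at 36.1, 22.1 and 27.3 in Dahl S, values around the pseudocount that carry no test. None of 6 muscle marker genes passed the filter.

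ATP synthase consists of the catalytic F1 head, a peripheral stalk and a membrane part with the proton-driven rotor. All 16 genes were tested, and none passed, with a median of -0.05 and a range of -0.26 to 0.21. After quantile normalization the F1 subunits alpha, beta and gamma were among the most closely matched members. Atp5f1b, the catalytic beta subunit, had signals of 8508, 8600 and 8422 in Lewis and 8316, 8422 and 8063 in Dahl S, with ranges that touch, and a difference of -0.04 (SE 0.04). Atp5f1a gave -0.03 (SE 0.05) and Atp5f1c 0.01 (SE 0.06). With a common median these 3 were lower, Atp5f1a at -0.16, Atp5f1b at -0.235 and Atp5f1c at -0.134. None of them passed there, and all genes had a median of 0.07. With cyclic loess they gave -0.103, -0.149 and -0.069 in the same order. Of the central stalk subunits, Atp5f1d, delta, gave -0.17 (SE 0.06, limma adjusted p = 0.063) with no overlap between strains, and Atp5f1e, epsilon, gave -0.05 (SE 0.05). Atp5f1d passed with cyclic loess (-0.22, adjusted p = 0.039 by limma) and without Lewis array 3 (-0.19, 0.049).

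The 4 peripheral stalk genes lay between -0.06 and 0.04. All 6 genes of the membrane part were below 0, from -0.26 to -0.02, and none passed. In 4 of the 6 Dahl S lay below Lewis without overlap, as did 16.7% of all genes tested. Named after its value was seen, Atp5me, a small membrane subunit, was lowest, with signals of 2637, 3162 and 2683 in Lewis and 2035, 2610 and 2445 in Dahl S. Its difference was -0.26 (SE 0.09, limma adjusted p = 0.085), and it passed without Lewis array 1 (-0.30, 0.048). Atp5mf, chosen in the same way, gave -0.15 (SE 0.05, limma adjusted p = 0.063) and passed without Lewis array 1 (-0.18, 0.012). Atp5mc3, a gene of the rotor ring and also named after its value was seen, gave -0.13 (SE 0.05, limma adjusted p = 0.13) and passed with a common median (-0.29, 0.032). Atp5if1 encodes the inhibitor that holds the enzyme when it would run backwards and hydrolyse ATP. It was the highest of complex V, with signals of 1212, 1811 and 1615 in Lewis and 1743, 1834 and 1723 in Dahl S. The strains overlapped, and the difference of 0.21 (SE 0.12, limma adjusted p = 0.25) did not pass. A dimmer tested probe set of Atp5if1 gave -0.11 (SE 0.13, limma adjusted p = 0.63), and the average of its tested probe sets gave 0.05.

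The other genes of the pathway were read against the same 16.6% of all genes. Of 8 tested genes of complex II and the electron carriers 1 fell (12.5%), Etfdh, which passes electrons from fatty acid oxidation to ubiquinone (-0.47, SE 0.09, limma adjusted p = 0.0029). That call was lost with a common median (-0.39, limma adjusted p = 0.086). The subunits of complex II ran from -0.09 for Sdhc and Sdhd to 0.03 for Sdha. Of 29 assembly genes outside the rule 3 passed (10.3%). Of these 2 rose, Acad9 and the copper chaperone gene Sco1 (0.42, SE 0.10, limma adjusted p = 0.010), and 1 fell, Foxred1 (-0.52, SE 0.11, limma adjusted p = 0.0071), which acts in complex I assembly. The call of Sco1 was lost without Dahl S array 3 (0.38, limma adjusted p = 0.076).

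Of 17 regulators of mitochondrial genes 1 fell (5.88%), the nuclear receptor gene Esrrb (-0.52, SE 0.13, limma adjusted p = 0.018). It was lost without Dahl S array 1 (-0.53, limma adjusted p = 0.061) or 3 (-0.47, 0.085) and with no filter (0.059). The coactivator gene Ppargc1a gave -0.07 (SE 0.08), Esrra -0.07 (SE 0.12) and the mitochondrial transcription factor gene Tfam 0.14 (SE 0.09). Further from 0, but not past the threshold, were Pprc1 at 0.43 (SE 0.15, limma adjusted p = 0.068), Nrf1 at 0.40 (SE 0.15, 0.088) and Polrmt at -0.34 (SE 0.11, 0.053). Of the 17 regulators 12 were above 0 and 5 below, with a median of 0.10. Of 10 genes of ubiquinone synthesis none passed, with a range of -0.27 to 0.02. In the deposited intensities, of these genes outside the rule that passed, only Acad9 kept its call. The genes of these lists that did not pass were named after their values were seen. For comparison, 4 of 73 mitochondrial ribosomal protein genes passed (5.48%), as did 6 of 33 Slc25 carrier genes of the inner membrane (18.2%).

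Cell type markers moved in the same kidneys, against the 9.04% of all genes that were higher and 7.59% that were lower. Tubular injury markers had the widest gap as a ratio of summed signals, with sums of 14258 to 14448 in Dahl S and 7294 to 8147 in Lewis. Of these 8 markers 6 were higher and none lower. Of 13 proximal tubule markers 7 fell and none rose, and their summed normalized signal was 46356 to 46854 in Dahl S and 55043 to 57594 in Lewis. Of 10 leukocyte markers 9 rose, with sums of 10137 to 10664 in Dahl S and 8285 to 8975 in Lewis, and of 6 fibroblast and matrix markers 5 rose, with sums of 5773 to 5906 and 3265 to 3937. Of 4 erythrocyte markers 3 rose, with sums of 6129 to 6560 in Dahl S and 4419 to 5446 in Lewis. Of 4 podocyte markers 2 fell, with sums of 1411 to 1450 and 1821 to 1876, and of 7 collecting duct markers 2 fell, with sums of 6754 to 6786 and 7383 to 8151. Of 8 markers of the thick limb and distal tubule 1 rose and 1 fell, and the sums were 28300 to 28914 in Dahl S and 29151 to 30961 in Lewis. The part of these shifts in the members' differences was not tested.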

How the data were processed

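Kidney RNA of 6 male rats, 3 per strain, was measured on 1 array per rat. The authors computed the deposited signal intensities with GeneChip Operating Software version 1.4, per the labels; no scaling target is stated there. Overall brightness differed between arrays, so log2(signal + 16) was quantile-normalized. Probe sets that 3 or more arrays put above the overall median, 15778 of 31099 with 57 control probe sets left out, were compared by limma 3.58.1 in R 4.3.3 (two-sided, variance trend, Benjamini-Hochberg over all of them, threshold 0.05). The probe set with the highest mean stood for a gene. The fit was tested on simulated data. Intervals are unadjusted and come from the main scaling alone, and the 6 arrays limit precision.

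Members were taken by symbol prefix. The members and the lists were chosen with earlier results of these data known. Genes named are those past the threshold, a fixed set of core subunits and tissue isoforms, genes whose probe sets differed by over 0.5 log2, and up to 4 genes per pathway list past the threshold; others are said to have been chosen after their values were seen. Alternatives were other scalings, pseudocounts and filters, probe set averages, a replicate block, no variance trend, and leaving out each array. Strains share replicate numbers, but same-numbered arrays did not deviate together (correlations of -0.05, -0.10 and 0.11), so the main fit has no block.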

Additional observations from a re-analysis of the deposited data

How the results depend on the processing

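The median difference over the members was -0.055 and moved to 0.247 without normalization, where all genes had a median of 0.41. In the other alternatives it moved by less than 0.054, at most to -0.095 with a common median. That 0.054 is the SD, within a strain, of the arrays' median log2 member signal, and is about as large as the median difference itself. The median difference ran from -0.068 to -0.039 with 1 array left out. The 2 higher members became 1 without normalization and with the stricter filter, and stayed 2 with any array left out. The 1 lower member became 0 without normalization, with no filter or with no variance trend, 2 with a common median or cyclic loess and 3 with the replicate block, and ran from 0 to 6 with 1 array left out, the 6 without Lewis array 1. Higher complex I genes numbered 0 with the stricter filter, which no longer tested Ndufaf1, and 1 otherwise. Lower complex I genes numbered 0 without normalization, without a filter or without a variance trend, 2 with the replicate block, and 0 to 4 with an array left out. Higher complex IV genes numbered 0 without normalization, and lower complex V genes 1 with a common median, cyclic loess or the replicate block and 0 to 2 with an array left out. With Ndufa4 counted in complex IV, a choice made after seeing the data, complex I had 0 lower genes and complex IV 1. With every probe set counted, also chosen after seeing the data, complex III had 1 higher. Without normalization Ndufa4 turned to 0.064. Over all genes tested, calls fell from 1586 to 392 without normalization and to 903, 934 and 849 without Dahl S arrays 1, 2 and 3. The replicate block added the calls of Ndufa1 and Atp5me and took away none of the members' calls. The causes of these changes were not tested. The table states no detection or saturation, and sequence variants of the strains under the probes were not considered.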

Other observations

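Several chain probe sets carry more than 1 symbol and so belong to no member. Of 6 such probe sets 5 lay between -0.05 and 0.03 (those with the symbols of Atp5mc1, Atp5mc2, Cox7a2, Uqcrb and Ndufs5). The sixth, annotated with both Ndufa10 and Ndufa10l1, had normalized signals of 703, 815 and 869 in Lewis rats 1 to 3 and of 1560, 1561 and 1556 in Dahl S rats 1 to 3. Its difference was 0.96 (SE 0.08, limma adjusted p = 8.3e-06), more than that of any member gene. It ran from 0.87 to 1.02 with any 1 array left out and passed each time. Which of the annotated genes it reads was not tested.

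Probe sets annotated COX1 and COX2, in the capitals used for subunits encoded in mitochondrial DNA, gave -0.15 (SE 0.05, limma adjusted p = 0.067) and 0.06 (SE 0.05, 0.41).

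Uqcrc2, whose 2 probe sets disagreed, starts 1008 kb after the end of Acsm3 on chromosome 1 in the GRCr8 assembly. Acsm3 had the largest rise of all genes tested, 3.39 on the log2 scale. Whether the values of the 2 genes are related was not tested.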
